A study of Mus musculus with 25 samples.

Results

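The cytosolic ribosomal protein genes were taken by name from a gene table of mouse atria. All symbols that begin with Rpl or Rps and a number were included, together with Rplp0, Rplp1 and Rplp2, and the Rps6k kinases and symbols with "-ps" were left out. This gave 84 genes of 14457. Of these, 45 encode proteins of the large subunit and 30 proteins of the small subunit. A further 5 are paralogs of such genes (Rpl3l, Rpl22l1, Rps27l, Rpl7l1 and Rps4l), 3 are retrocopies or extra copies (Rps27rt, Rpl37rt and Rps3a3), and Rps19bp1 encodes a protein that binds a ribosomal protein and is not one itself. All 84 passed the filter on low values, at least 1 CPM (reads of a gene per 1000000 counted reads) in at least 5 libraries, as did every other gene of the table.

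The data came from 25 RNA sequencing libraries of atria of adult mice aged 60 to 90 days, with no treatment. They were 8 knockout (KO) females, 5 KO males, 5 wild-type (WT) females and 7 WT males. The study compared atria with reduced and with basal PAM, peptidylglycine alpha-amidating monooxygenase, the enzyme that amidates the carboxyl end of neuropeptides and is abundant in atrial myocytes. Neither the deleted exons nor the driver of the deletion, the cells it acts in or the strain could be read from the labels. The library names begin with LA or RA (LARA set, 12 libraries), CGI (9 libraries) or MaleKOAtrium (4 libraries, all KO males), and the labels do not explain these names. The LARA set held 5 KO females, 1 KO male, 2 WT females and 4 WT males, and the CGI set held 3 KO females, 3 WT females and 3 WT males. Nothing in the labels says that the libraries of a group are separate litters or days, so the p-values below measure only the spread between these libraries.

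Each ribosome joins a small subunit, which reads the messenger, to a large subunit, which forms the peptide bond, and most of their proteins are present in a single copy. Their genes are transcribed in every cell type, and their messengers begin with a run of pyrimidines, the 5′ terminal oligopyrimidine tract, through which mTOR and the RNA-binding protein LARP1 set their translation. A few have tissue-restricted paralogs, of which Rpl3l, made in heart and skeletal muscle in place of Rpl3, is the best known.

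Total counts recovered from the CPM values ran between 2246887 (WF10, a WT female) and 8098602 (KM07, a KO male), with 2494461 in the KO male KM01. These 2 least deep libraries also had the highest shares of mitochondrially encoded transcripts, 18.5% in KM01 and 30.2% in WF10, against 7.70% to 12.98% in the others. Pam, which checks the labels, was at 295 to 520 CPM in the 13 KO libraries and at 1409 to 6245 CPM in the 12 WT libraries, with no overlap. Of the atrial myocyte markers all 8 were measured and summed to between 15884 and 30764 CPM. The atrial growth factor Bmp10 varied within every group, between 1.26 and 6074 CPM in KO females, 46.5 and 7597 CPM in KO males, 15.6 and 6410 CPM in WT females and 0.433 and 6179 CPM in WT males. The largest log2 difference of an atrial marker was 3.97 in KO minus WT males and 3.05 in CGI minus LARA libraries. For the knockout effect in females minus that in males, the lowest was -6.84. Each was also the extreme of all genes. No comparison below had a term for Bmp10 or for LA and RA names, and their part in the differences was not tested. Of 7 ventricle markers 6 were measured, and their sum was 316 CPM in KM01 and 7016 CPM in WF10.

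The start regions of several genes that the results turn on are shown because the pyrimidine tract of the messenger begins at the transcription start. RefSeq (GRCm38.p6) holds a promoter window, 250 bases before to 50 bases after the annotated start, for 62 of the 84 genes and for 55 of the 75 subunit genes. Each line below gives 40 bases before to 20 bases after the annotated start on the strand of the gene, and capitals mark the longest unbroken run of C or T within 30 bases before and 20 after it. Rpl35, Rps21 and Rpl38 are among the subunit genes that differed most between library sets, Rpl4 is a long and steady subunit gene, Rps27 and Rps27l are a pair of near copies, and Rpl22l1 and Rpl3l are paralogs described below.
Rpl35 (chr2:39005112-39005171, minus strand): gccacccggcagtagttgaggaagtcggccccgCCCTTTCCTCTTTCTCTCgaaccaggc
Rps21 (chr2:180257339-180257398, plus strand): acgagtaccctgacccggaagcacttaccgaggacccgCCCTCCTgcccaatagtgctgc
Rpl38 (chr11:114668540-114668599, plus strand): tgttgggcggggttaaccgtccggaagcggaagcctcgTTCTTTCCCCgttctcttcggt
Rpl4 (chr9:64173347-64173406, plus strand): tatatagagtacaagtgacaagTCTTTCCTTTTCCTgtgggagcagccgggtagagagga
Rps27 (chr3:90213629-90213688, minus strand): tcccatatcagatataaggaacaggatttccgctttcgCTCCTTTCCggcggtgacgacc
Rps27l (chr9:66946046-66946105, plus strand): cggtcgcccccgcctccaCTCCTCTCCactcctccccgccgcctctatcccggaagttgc
Rpl22l1 (chr3:28805468-28805527, plus strand): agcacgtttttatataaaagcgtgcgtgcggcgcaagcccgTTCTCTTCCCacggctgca
Rpl3l (chr17:24727786-24727845, plus strand): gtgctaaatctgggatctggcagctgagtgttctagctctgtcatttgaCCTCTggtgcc

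The run was 18 bases long in Rpl35, 14 in Rpl4, 10 in Rpl38 and Rpl22l1, 9 in Rps27 and Rps27l, 7 in Rps21 and 5 in Rpl3l. In Rps27l another run of the same length follows 1 base after the marked one, and the first is marked. The runs of Rpl35, Rps21, Rpl38 and Rps27 spanned the annotated start, and that of Rpl22l1 began 1 base after it. The marked runs of Rpl4 and Rps27l began 18 and 22 bases before the start and ended before it. That of Rpl3l began 9 bases after the start. The lengths alone therefore do not place a tract at the beginning of the messenger. Over the subunit genes with a window, 29 of 55 (52.7%) held an unbroken run of at least 8 pyrimidines within 30 bases of the start on the strand of the gene, against 21.6% of the 10751 genes of the table with a window. The letters CCGGAAG, the core bound by ETS factors, stood on either strand of the whole window in 22 of 55, against 17.3% of all. TATAAA stood in the 40 bases before the start in 0 of 55, against 1.47%. A match describes these letters only and is not a measured binding site.

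Most subunit genes were among the abundant transcripts of the atrium. Of 75, 73 had a mean over the 25 libraries of at least 100 CPM. The highest means were those of Rplp0, the stalk protein (1189 CPM), Rpl4 (1181 CPM) and Rps4x, the X-linked gene of eS4 (1135 CPM). The lowest 3 means of the 84 were those of copies, with 1.62 CPM for Rps3a3, 1.95 CPM for Rps27rt and 7.09 CPM for Rpl37rt. GENCODE M21, on the same build, types Rps3a3 as a processed pseudogene and Rpl37rt and Rps4l as transcribed processed pseudogenes. Of subunit genes, Rpl13a had the lowest mean at 14.3 CPM. Per kb of transcript, each paralog was below its parent. The means were 83.9 CPM per kb for Rpl22l1 and 653.6 for Rpl22, 175.5 for Rps27l and 1149 for Rps27, 66.8 for Rpl7l1 and 1214 for Rpl7, and 23.0 for Rps4l and 1164 for Rps4x. Rps19bp1, with a mean of 13.9 CPM, differed by 0.20 between KO and WT females and by -0.23 between KO and WT males on the log2 scale used below, and did not pass in either sex.

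The family has many near-identical processed copies in the genome, and how the authors' counting treated reads that fit several places is not stated in the labels. Stretches, transcript lengths and coding lengths were taken from a single GENCODE transcript per gene. It was the one with the longest coding sequence and, among equals, the shortest transcript. Shares, levels per kb and length classes depend on that choice. In GENCODE transcripts, a median of 48.7% of the 75-base stretches of a subunit gene also occurred in transcripts of other genes. The share was above 50% in 36 of 75, reached 98.5% in Rps27, and was 90.3% in Rps27rt, 90.0% in Rpl37rt and 83.2% in Rpl3, while Rps3 shared none. Rpl3l also shared none, with Rpl3 or any other gene. Levels of genes with a large share are uncertain. Across the 75 subunit genes, the percentage of shared stretches and the level per length (CPM per kb of transcript) had a Spearman correlation of 0.15, given as a description.

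The subunit genes moved as one group across libraries. Over 2775 pairs of the 75 genes, the median Pearson correlation of log2(CPM + 1) over the 25 libraries was 0.93 (lowest 0.56, highest 0.99), and it was 0.92 without KM01 and WF10. The first principal component of their values held 91.9% of the variance and the second 2.72%. The highest library of a gene was KM01 for 72 of the 75 and KF19, a KO female, for the other 3 (Rpl3, Rpl27 and Rps4x). The lowest was KM03, a KO male, for 40 and WF10 for 35. Between its lowest and highest library a subunit gene changed 2.995-fold (Rpl5) to 14.4-fold (Rpl13a). Because the genes share libraries in this way, a count of genes that lean one way repeats largely 1 measurement per library, and the genes are not independent replicates of a condition.

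The share of all counted reads that fell on the 84 genes sums this up. It was 3.17%, 3.20%, 3.67%, 4.06%, 4.17%, 4.33%, 4.55% and 5.64% in the KO females and 1.90%, 3.08%, 3.15%, 3.26% and 3.65% in the WT females. It was 1.89%, 2.83%, 3.43%, 4.19% and 7.90% in the KO males and 3.11%, 3.49%, 3.54%, 3.74%, 4.41%, 4.66% and 5.04% in the WT males. KO females therefore lay on average above WT females with an overlap, and KO males spanned the whole range of WT males and went beyond it at both ends. The means were 4.10% ± 0.80 in KO females and 3.01% ± 0.66 in WT females (SD, n = 8 and 5), and 4.05% ± 2.31 in KO males and 3.999% ± 0.71 in WT males (SD, n = 5 and 7). The 95% Wilson interval of a share was at most 0.0669 percentage points wide (7.87% to 7.93% in KM01). Such intervals cover counting error only, since reads without molecular identifiers are not independent molecules. In such bulk samples, fewer cells of a type and less RNA per cell cannot be told apart.

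**Figure D1:**
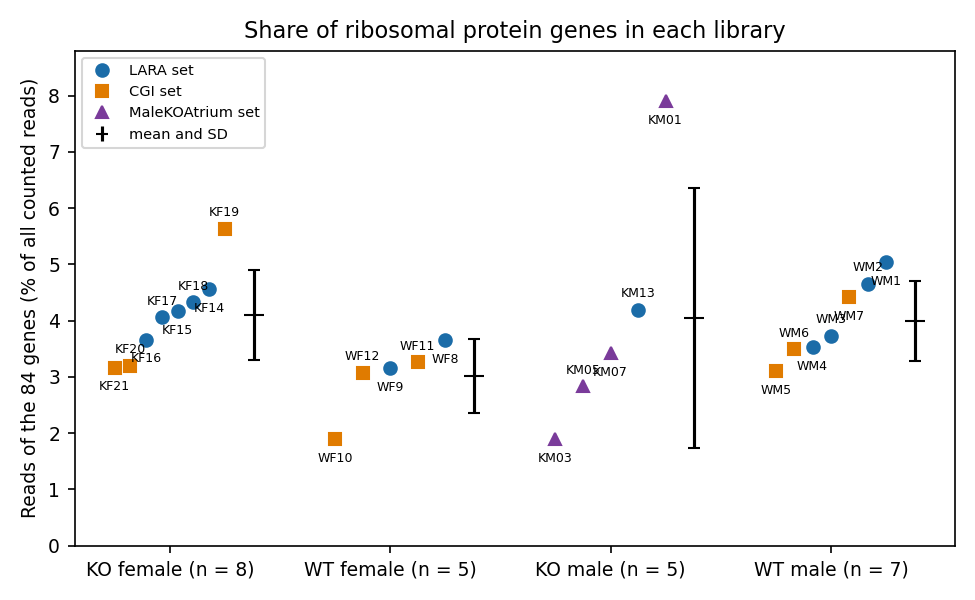
Each point is 1 library, with its share of counted reads on the 84 genes in percent on the vertical axis, and its group on the horizontal axis. Colour and marker give the library name set, and the black bars give mean and SD. The KO male KM01 at 7.90% is the highest of all, and KM03 at 1.89% and the WT female WF10 at 1.90% are the lowest.

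The libraries at the ends also differed in other genes. KM01, with the highest share, had a cell cycle gene sum of 566 CPM (48.1 to 264 CPM in the others, 14 of 14 genes measured) and the highest sums of erythroid genes (5642 CPM, against 394.8 to 3676 CPM, 9 of 10 measured) and immune cell genes (2318 CPM, against 595 to 1613 CPM, 18 of 19 measured). WF10 had the lowest sums of fibroblast genes (1822 CPM, against 3232 to 6025 CPM in the others, 9 of 9 measured) and of atrial myocyte markers (15884 CPM). KM03, at nearly the same share as WF10, had the highest sum of atrial myocyte markers (30764 CPM) and 9.57% of mitochondrially encoded transcripts. Their part in the level of the ribosomal protein genes was not tested.

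**Figure D2:**
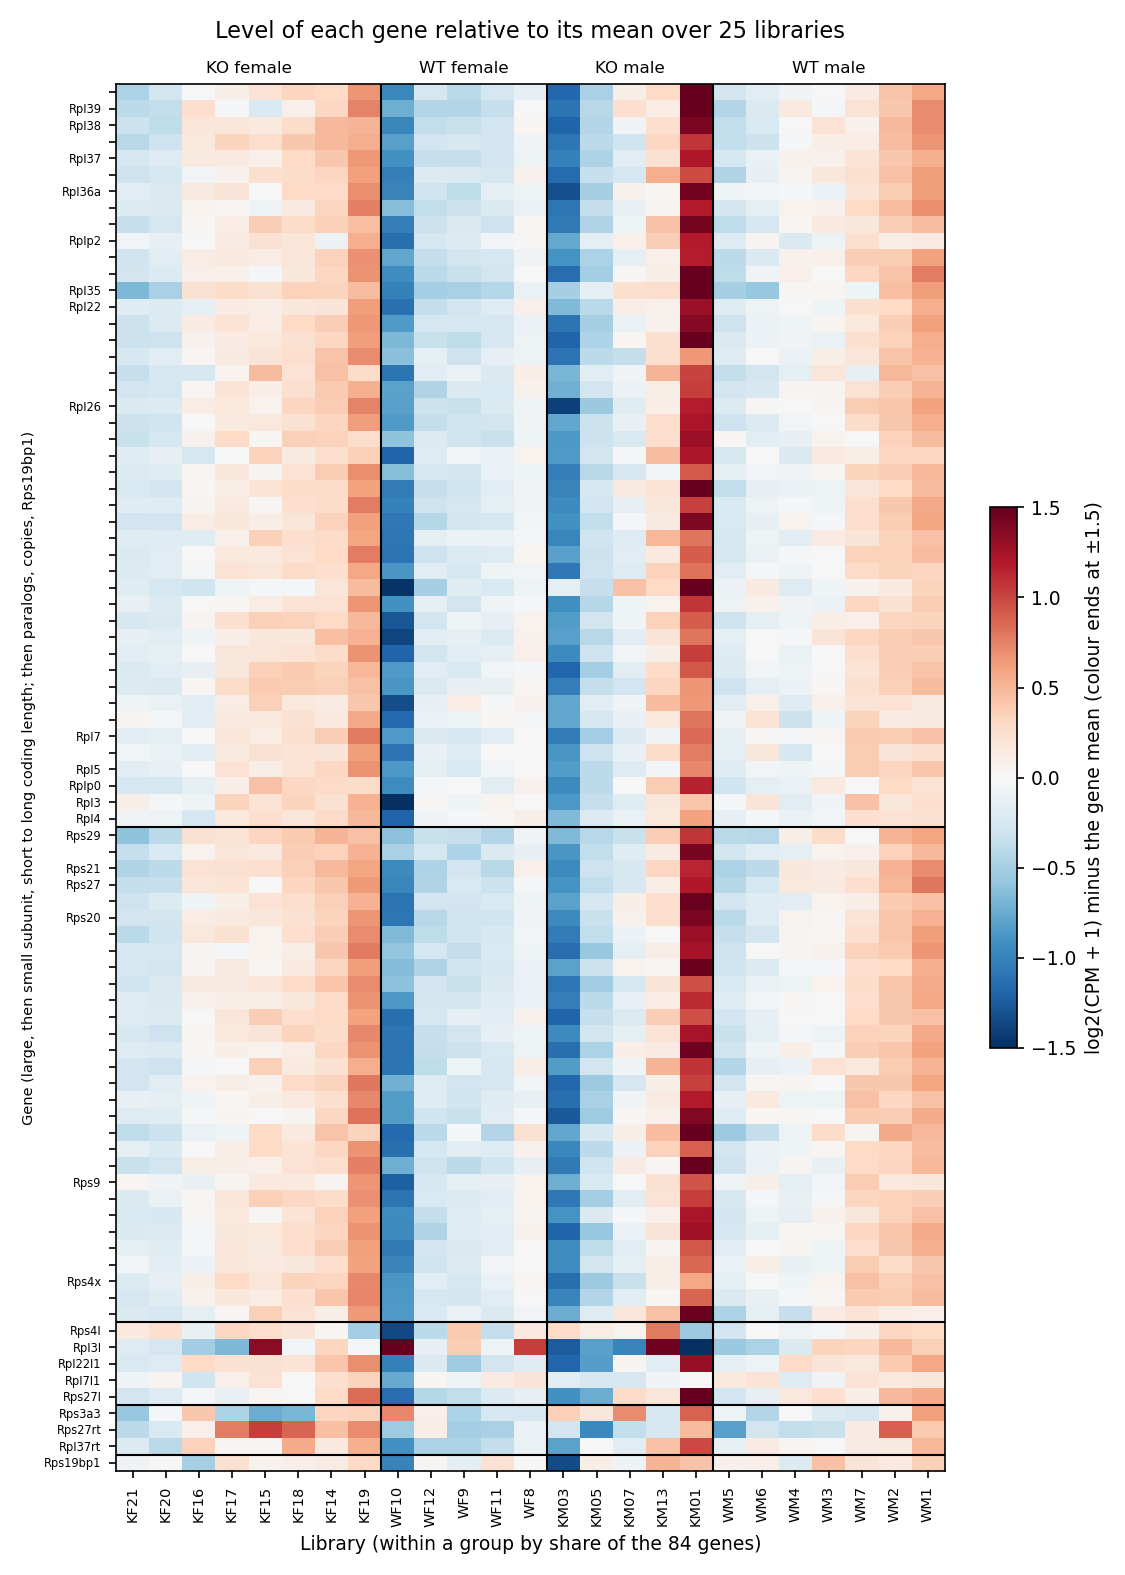
Rows are the 84 genes and columns the 25 libraries, KO left of WT within each sex and from low to high share within a group. Colour gives log2(CPM + 1) minus the mean of the gene over all libraries, and the genes whose values are described in detail are labelled. Columns are nearly uniform over the subunit genes, KM01 dark red and WF10 and KM03 blue. The rows of Rpl3l, Rps4l and Rps3a3 depart from this.

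Within the group, 69 of 75 subunit genes had a correlation above 0.9 with the mean of the others, and the lowest was 0.81 for Rpl3. Without KM01 and WF10 it was above 0.9 in 62 of 75, 0.86 for Rpl3 and lowest, at 0.63, for Rpl13a. The spread of log2(CPM + 1) over libraries was smallest for Rpl7l1 (SD 0.23), Rpl4 (0.36) and Rpl5 (0.38), and largest for Rpl3l (0.80), Rpl35 (0.59) and Rpl39 (0.59). Rpl4 encodes uL4, which lines the exit tunnel, and Rpl5 encodes uL18, which binds 5S ribosomal RNA. Among the genes outside the subunits, the correlation with the subunit mean was 0.95 for Rps27l, 0.94 for Rpl22l1, 0.91 for Rpl37rt, 0.76 for Rps19bp1, 0.65 for Rps27rt and 0.58 for Rpl7l1. It was 0.15 for Rps4l, 0.08 for Rps3a3 and -0.06 for Rpl3l. Without KM01 and WF10 it was 0.02 for Rps4l, 0.01 for Rps3a3 and 0.55 for Rpl3l. These correlations are descriptions over the same 25 libraries.

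A second, smaller pattern went with gene length. The 9 subunit genes with a coding length below 300 nt and the 23 above 600 nt differed most in KM01, where short genes lay 1.36 and long genes 0.94 above their own means in log2(CPM + 1). The short minus long difference was 0.42 in KM01, 0.29 in the WT male WM1 and 0.25 in WF10. It lay between -0.26 (KF21, a KO female) and 0.22 (KF16, a KO female) in the other 22 libraries.

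Knockout and wild-type females were compared within library sets, by limma on log2(CPM + 1) with the set as a term and Benjamini-Hochberg adjustment over 14457 genes. No ribosomal protein gene passed (0 of 84, adjusted p = 0.935 to 0.982), and 0.0138% of all genes did. At an unadjusted p under 0.05, 48 of 84 were higher and 0 lower in KO females, against 2.97% of all genes higher. The differences of 82 of 84 genes lay above 0, against 69.1% of all genes, with a median of 0.42 beside 0.11 over all genes. With median-ratio scaling the median of all genes was 0.01, that of the 84 genes 0.31, and 3 had an unadjusted p under 0.05. edgeR's quasi-likelihood test on the recovered counts found 8 at an unadjusted p under 0.05 and 0 after adjustment, and DESeq2 found 18 and 0. With array weights the median was 0.18 beside 0.05 over all genes, 80 of 84 lay above 0, and 4 had an unadjusted p under 0.05. All 9 erythroid genes measured lay below 0 in KO females (median -0.60), as did 12 of 18 immune cell genes (median -0.46, 5 at an unadjusted p under 0.05), while 11 of 12 epicardial and mesothelial genes lay above 0 (median 0.36). None of these was called by limma, and their part in the result was not tested. The median of the ribosomal protein differences was 0.42 over 45 large subunit genes (range 0.24 to 0.50) and 0.43 over 30 small subunit genes (range 0.30 to 0.51).

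The 5 genes of smallest p did not pass the test and show the size of the spread. Rpl22l1, the paralog of the large subunit gene Rpl22, had its lowest, median and highest values at 36.9, 50.8 and 70.9 CPM in KO females and stood at 20.9, 29.5, 35.2, 37.1 and 38.2 CPM in WT females. Its groups overlapped in the KO females KF20 and KF21, and the log2 difference was 0.62 ± 0.20 (SE, limma adjusted p = 0.935). Rpl37, a zinc-binding protein of the large subunit, was at 246, 325 and 465 CPM (lowest, median, highest) in KO females and at 157.1, 231.8, 231.9, 241.3 and 280.6 CPM in WT females, with a log2 difference of 0.50 ± 0.19 (SE). Rps20, of the head of the small subunit, had 326, 445 and 633 CPM in KO females and 188, 299, 323, 324.5 and 386 CPM in WT females, with a difference of 0.51 ± 0.20 (SE). For all 3 the highest library was KF19 and the lowest WF10. Rpl36a (0.50 ± 0.20) and Rpl26 (0.49 ± 0.19) followed, with adjusted p = 0.935 by limma. Rplp0, of highest mean, had 952, 1303 and 1544 CPM in KO females and 594, 1024, 1116, 1132 and 1189 CPM in WT females, and its difference was 0.24 ± 0.19 (SE, limma adjusted p = 0.935).

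The 2 library sets of females differed in overlap. In the LARA set, the share of the 84 genes was 3.67% to 4.55% in the 5 KO females and 3.15% and 3.65% in the 2 WT females, with no overlap. Both WT females of that set have RA names. The KO females with RA names were at 4.17% and 4.33%, and those with LA names at 3.67%, 4.06% and 4.55%. In the CGI set, 3.17%, 3.20% and 5.64% in KO females stood against 1.90%, 3.08% and 3.26% in WT females. Gene by gene, 43 of 84 had every KO female above every WT female in the LARA set, where 2.5% of all genes did, and 10 of 84 in the CGI set, where 7.2% of all genes did. The reverse order was found for 0 of 84 in either set, against 6% of all genes in the LARA set and 1.65% in the CGI set. The number of genes at an unadjusted p under 0.05 was 20 without WF10 (median difference 0.31), 2 without KF19 (0.28), 3 without WF9 (0.41), 27 without KF18 (0.42) and 28 without KF14 (0.41). For refits with other settings or with libraries left out, the share of all genes at an unadjusted p under 0.05 was not counted in any comparison. The sum of atrial myocyte markers was 22054 to 27784 CPM in KO females and 15884 to 25142 CPM in WT females, with 7 of 8 markers above 0 in the difference. The ventricle marker sum was 359 to 5474 CPM in KO females and 640 to 7016 CPM in WT females, with 5 of 6 markers below 0 in the difference, and the part of either list in the result was not tested.

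**Figure D3:**
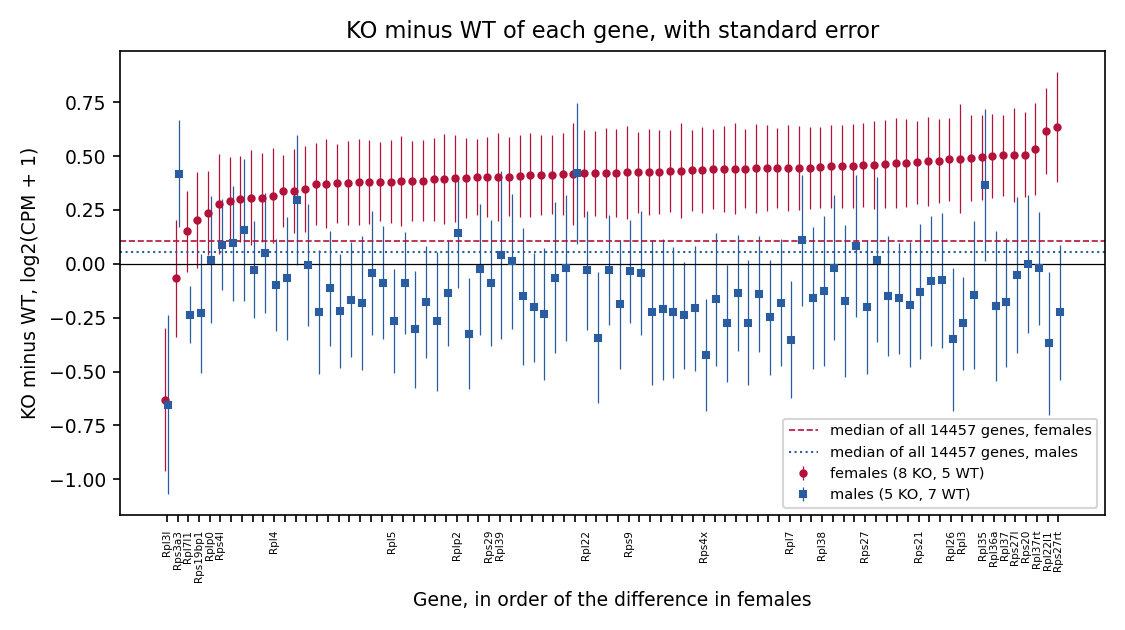
Points give the KO minus WT difference of each of the 84 genes in log2(CPM + 1), with standard errors, for females in red and males in blue. Genes are ordered by the difference in females, those described in detail are labelled, and dashed and dotted lines give the median of all genes. In females all but Rpl3l and Rps3a3 lie above 0, and in males 15 of 84 lie above 0, and none of the differences passed the test.

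In males, 5 knockouts were compared with 7 wild types without a set term, because 4 of the 5 KO males form a name set of their own. For those 4, genotype and set cannot be told apart. None of 84 genes passed (limma adjusted p = 0.512 to 0.999), against 0.277% of all genes, and none had an unadjusted p under 0.05 with limma, edgeR or DESeq2. With limma 11.8% of all genes had such a p, and this share was not counted for edgeR or DESeq2. The median difference was -0.14 beside 0.05 over all genes, 15 of 84 lay above 0 against 56.6% of all genes, and the median turned positive with edgeR (0.06) and DESeq2 (0.06). The direction rested on single libraries. Without KM01 the median was -0.41 and 27 genes had an unadjusted p under 0.05, with 0 called, and without KM03 the median was 0.10. How many of all genes reached that p without KM01 was not counted. With array weights, which let limma weigh each library by its scatter, 18 of the 84 genes (and 23.2% of all genes, in either direction) were called, all 18 lower. The epicardial and mesothelial gene sum was 265 to 959 CPM in KO males and 1041 to 1602 CPM in WT males, with 5 of 12 genes called lower. No gene of 3 other lists was called, but all 9 erythroid genes measured (median difference 1.38, 7 at an unadjusted p under 0.05), all 18 immune cell genes (median 0.59, 6) and all 14 cell cycle genes (median 1.04, 5) lay above 0 in KO males. The part of these genes in the result was not tested.

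Rps4x had 500, 745, 862, 1158 and 1638 CPM in KO males, and its lowest, median and highest values in WT males were 998, 1134 and 1483 CPM. The KO males KM03, KM05 and KM07 were below every WT male, KM13 lay within them and KM01 above, and the difference was -0.42 ± 0.26 (SE, limma adjusted p = 0.551). Rpl7, a protein of the large subunit, had 472, 683, 844, 941 and 1757 CPM in KO males and 888, 993 and 1323 CPM in WT males (difference -0.35 ± 0.27, SE, limma adjusted p = 0.643). Rpl7l1 had 72.2, 73.2, 76.5, 83.6 and 86.6 CPM in KO males and 75.4, 96.8 and 101 CPM in WT males (difference -0.24 ± 0.13, SE, limma adjusted p = 0.512). Rps3a3 was near the depth limit, where 3 counts amount to 0.370 to 1.20 CPM in the KO males, and had a difference of 0.42 ± 0.25 (SE, limma adjusted p = 0.536), or -0.36 within the LARA set alone.

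The difference between the sexes in the effect of the knockout was tested as an interaction over all libraries with the set as a term, so that it rests on KM13 among the KO males. No gene of the 84 passed and 0% of all genes did, by limma. At an unadjusted p under 0.05, 0 of the 84 were higher in females and 1 (Rpl3l) lower, against 7.39% and 1.78% of all genes. For Rpl3l the difference of the effects was -1.93 ± 0.63 (SE, limma adjusted p = 0.334), and with array weights it passed at -1.60. Next by p, and not passing, were Rpl22l1 (1.08), the copy Rps27rt (0.998), Rpl7 (0.70) and Rps27 (0.68). The median difference of the effects was 0.46 over the 84 genes and 0.25 over all. Over both sexes with sex and set as terms, which again leaves the MaleKOAtrium libraries out of the contrast, 0 of 84 passed, against 0.00692% of all genes, and 82 lay above 0 against 63.6%. The median difference was 0.33 beside 0.07 over all genes, and it was 0.14 with array weights and 0.18 with no term for the name set. At an unadjusted p under 0.05 stood 1 gene, Rpl37rt (0.48 ± 0.20, SE), beside 3.68% of all genes. Next by p in this fit were Rps4l (0.36), the stalk gene Rplp2 (0.40), Rpl3 (0.41) and Rps9 (0.38) (limma adjusted p = 0.981 for each). Without KM01, which does not enter the contrast, 35 genes had an unadjusted p under 0.05 and the median stayed at 0.33. The share of all genes was not counted in that refit, so the 35 cannot be read as a result about these genes. In the authors' deposited table, whose p-values are DESeq2's and not said to be adjusted, 0 of the 84 genes had a p under 0.05 and the lowest was 0.0518 for Rpl35. Its log2 ratio, which is WT over KO, was below 0 for 81 of 84 genes, with a median of -0.19 for these genes in the authors' deposited table and -0.08 over all its lines. The shares of all its lines with a p under 0.05 or a ratio below 0 were not counted. Neither count can therefore be read as a result about these genes.

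CGI libraries were compared with LARA libraries over 21 libraries with the group (genotype and sex) as a term. Of the 84 genes 4 were lower in CGI libraries and 0 higher (limma, adjusted p under 0.05), against 3.04% of all genes lower and 4.79% higher. Rps29, Rpl35 and Rps21 were among them, and 81 of 84 lay below 0 against 41.1% of all genes, with a median of -0.21 beside 0.07.

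Rps29, a small zinc-binding protein of the head of the small subunit (GENCODE M21, chr12:69157722-69159186, minus strand), had 243, 281 and 506 CPM as lowest, median and highest of 9 CGI libraries and 294, 462 and 566 CPM in 12 LARA libraries. Its difference was -0.50 ± 0.13 (SE, limma adjusted p = 0.0204). Rpl35, next to the exit of the tunnel of the large subunit (chr2:39001580-39005624, minus strand), had 52.5, 75.6 and 148 CPM in CGI libraries and 75.9, 127 and 166 CPM in LARA libraries, with a difference of -0.52 ± 0.14 (SE, limma adjusted p = 0.0256). For these genes and the next the sets overlapped, with KF19 the highest of the CGI libraries. Rps21, a small subunit protein found in eukaryotes (chr2:180257377-180258445, plus strand), had 121, 177 and 354 CPM in CGI libraries and 192, 278 and 386 CPM in LARA libraries (difference -0.50 ± 0.14, SE, limma adjusted p = 0.0316). Rpl38 came next and did not pass (-0.41 ± 0.13, SE, limma adjusted p = 0.0578).

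Coding length was set beside these differences. The median CGI minus LARA difference was -0.41 for the 9 genes below 300 nt of coding length (range -0.50 to -0.21) and -0.17 for the 23 above 600 nt (range -0.34 to 0.02). Across the 75 genes the difference had a Spearman correlation of 0.50 with coding length, given as a description, and correlations of the other comparisons lay between -0.28 (KO minus WT in females) and 0.34 (female minus male in wild type). The number of calls in this comparison depended on single libraries, with 0 without WM6, KF20 or KF21, 1 without WM1, WM2 or WM5, 2 without WF8, 7 without WM4, 8 without WF10 and 18 without KF19. It was 0 in the wild types alone, where 16 had an unadjusted p under 0.05 with limma. The adipocyte gene sum was 316 to 863 CPM in CGI libraries and 356 to 2227 CPM in LARA libraries. All 8 of 8 genes lay below 0 (median -2.37) and 6 were called lower by limma, against 3.04% of all genes. The part of these genes in the result was not tested.

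**Figure D4:**
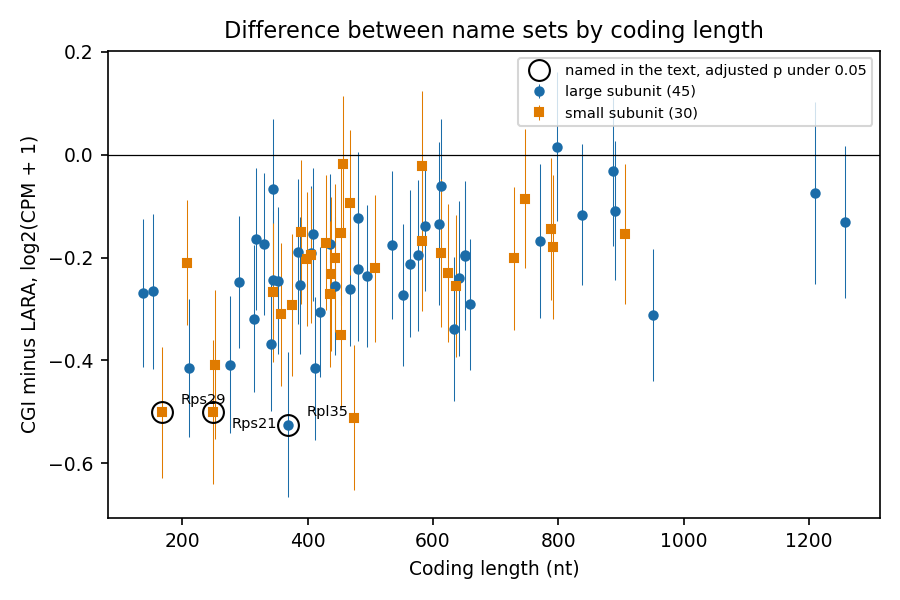
Each point is 1 of 75 subunit genes, with its coding length in nucleotides on the horizontal axis and its CGI minus LARA difference in log2(CPM + 1), with standard error, on the vertical axis. Circled are Rps29, Rpl35 and Rps21, which had an adjusted p under 0.05. The median is -0.41 for genes below 300 nt and -0.17 for genes above 600 nt.

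Between WT females and WT males, with the set as a term, 0 of 84 genes passed (limma adjusted p of at least 0.372), against 0.0553% of all genes. At an unadjusted p under 0.05, 48 of 84 were lower in WT females and 0 higher, against 5.71% of all genes lower, and 82 lay below 0 against 67.8%. The median was -0.39 beside -0.10 over all genes. With median-ratio scaling, edgeR and DESeq2 10, 13 and 25 had an unadjusted p under 0.05 and 0 were called by each, with medians of -0.27, -0.28 and -0.29. The number at an unadjusted p under 0.05 with limma was 9 without WM7, 10 without WF9, 20 without WM1 and 23 without WM2. No share of all genes was counted for these refits. These WT females are the same libraries as in the comparison of KO with WT females above. Rpl22l1 stood at 20.9, 29.5, 35.2, 37.1 and 38.2 CPM in WT females and had 39.5, 49.7 and 65.5 CPM as lowest, median and highest in WT males, without overlap (difference -0.60 ± 0.17, SE, limma adjusted p = 0.372). Rps27l was at 41.4, 68.4, 71.1, 80.4 and 85.1 CPM in WT females and 76.0, 104 and 137 CPM in WT males (difference -0.55 ± 0.18, SE, limma adjusted p = 0.496). Rpl37rt, Rpl37 and Rpl26 followed, at -0.54, -0.47 and -0.49. In the LARA set the share of the 84 genes was 3.15% and 3.65% in the WT females, both with RA names, 3.54% in the WT male with an RA name (WM4), and 3.74%, 4.66% and 5.04% in those with LA names. The epicardial and mesothelial gene sum was 299 to 889 CPM in WT females and 1041 to 1602 CPM in WT males, with 12 of 12 genes below 0, and its part in the result was not tested.

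Of the 84 genes, Rpl3l had the largest SD. Per length it was far below its parent, with a mean of 29.6 CPM per kb against 590 CPM per kb for Rpl3. Its values were 21.4, 24.0, 29.0, 30.2, 33.9, 34.2, 43.6 and 90.6 CPM in KO females and 31.9, 33.0, 45.3, 72.4 and 111 CPM in WT females. They were 11.6, 14.1, 17.04, 19.4 and 96.9 CPM in KO males and 23.3, 24.7, 29.9, 43.8, 43.9, 44.6 and 48.9 CPM in WT males. The 4 MaleKOAtrium libraries were below every other library, and the KO male KM13 was the second highest of all 25. Its difference was -0.63 ± 0.33 in females and -0.65 ± 0.42 in males (SE, limma adjusted p = 0.935 and 0.569). The male value was 1.22 within the LARA set alone, which rests on KM13, and -1.17 without KM13 (limma adjusted p = 0.0327).

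Rpl3l was compared with the marker lists across libraries. Over 25 libraries its log2(CPM + 1) had a Pearson correlation of 0.81 with the log2 sum of the 6 ventricle markers measured (permutation p = 1e-05, the smallest that 100000 resamples can give, adjusted p = 0.0001 over 10 marker lists). Spearman's rho was 0.77 (permutation p = 2e-05, adjusted p = 0.0002). Without the 2 libraries farthest from the median of the sum, WF10 and KF15, r was 0.72. It was 0.79 within the LARA set (n = 12, permutation p = 0.00254) and 0.93 within the CGI set (n = 9, exact permutation p = 0.00299), and the MaleKOAtrium set held too few libraries. Of the other 9 lists, the cell cycle genes had r = -0.68 (permutation p = 0.00012, adjusted p = 0.0006) and rho = -0.66 (permutation p = 0.00065, adjusted p = 0.00325). Within sets, r was 0.12 in the LARA set (n = 12, permutation p = 0.71) and -0.91 in the CGI set (n = 9, exact permutation p = 0.00364). Without KM01 and KM07 the pooled r was -0.57. The endothelial genes passed for rho alone (-0.51, permutation p = 0.0105, adjusted p = 0.0349, against an adjusted p of 0.218 for r = -0.33). Their r was -0.88 within the LARA set (n = 12, permutation p = 0.00024), -0.95 within the CGI set (n = 9, exact permutation p = 0.005) and -0.64 without WF10 and KM01. The remaining 7 lists had adjusted p = 0.122 to 0.864 for r. Within the CGI set, which includes WF10, 7 of the 10 lists had an unadjusted permutation p under 0.05, among them the atrial myocyte markers (r = -0.83, n = 9, exact p = 0.0101), and within the LARA set 2 of 10 did. Without WF10, 0 of the 10 lists did within the CGI set. There r was 0.69 for the ventricle markers (n = 8, exact permutation p = 0.0544), -0.67 for the cell cycle genes (n = 8, exact permutation p = 0.0667) and -0.67 for the endothelial genes (n = 8, exact permutation p = 0.0768).

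**Figure D5:**
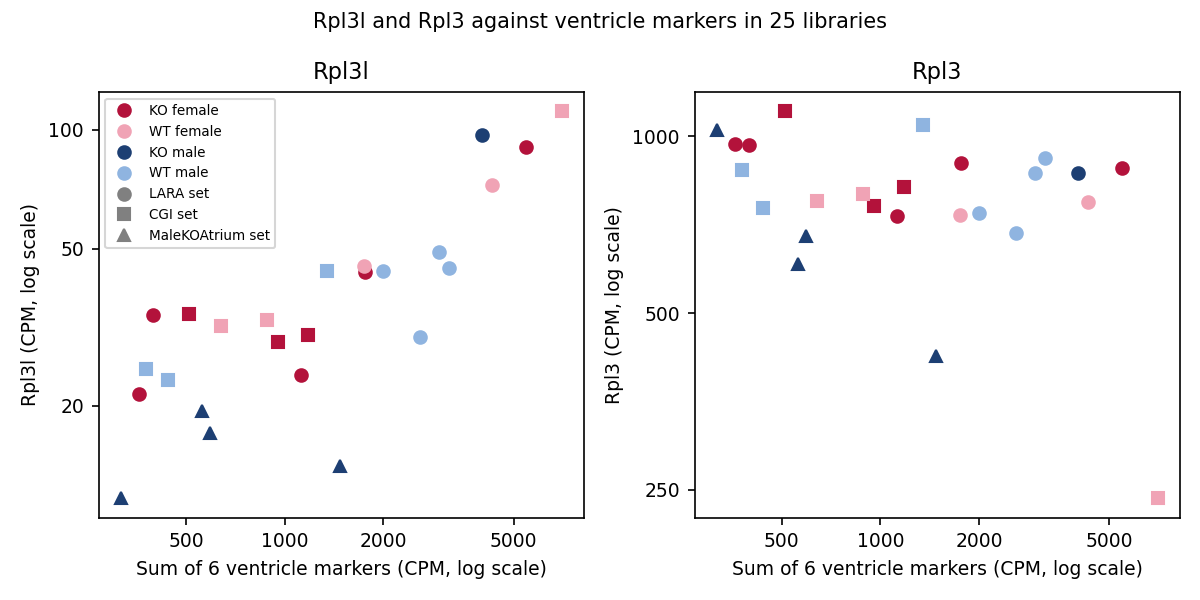
Each point is 1 of 25 libraries, coloured by group and shaped by name set, with the sum of 6 ventricle markers in CPM on a log axis. The vertical log axis gives Rpl3l on the left and Rpl3 on the right, both in CPM. Rpl3l climbs along the sum, with WF10, KM13 and KF15 at the top right, while Rpl3 has its lowest value, 242 CPM, in WF10.

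The ratios of paralog to parent were compared between genotypes by exact permutation tests, two-sided, with 420 splits within name sets in females and 792 in males, and p-values adjusted over the 10 tests. None passed. Rpl22l1 over Rpl22 differed by -0.35 in log2 in males (exact p = 0.00884, adjusted p = 0.0833), with -3.34 to -2.74 in KO males and -2.85 to -2.48 in WT males. In females the same ratio differed by 0.22 (exact p = 0.0452, adjusted p = 0.151), with 0.46 in the LARA set and -0.02 in the CGI set. Rpl7l1 over Rpl7 differed by -0.29 in females (exact p = 0.0167, adjusted p = 0.0833), -0.32 and -0.26 in the LARA and CGI sets, with -3.95 to -3.32 in KO females and -3.42 to -3.21 in WT females. Rpl7l1 is related to yeast Rlp7, a factor of large subunit assembly, and was the steadiest of the 84 genes. Rpl3l over Rpl3 differed by -1.13 in females (exact p = 0.0738, adjusted p = 0.185) and by -0.55 without WF10. The ratios of Rps27l to Rps27 and of Rps4l to Rps4x had adjusted p between 0.374 and 0.659 in both sexes. Single libraries decided some of these calls, at exact adjusted p below 0.05 without them. In males these were Rpl22l1 over Rpl22 without KM01 (-0.42, adjusted p = 0.0303) or WM7 (-0.38, adjusted p = 0.0433), and Rps4l over Rps4x without KM01 (0.91, adjusted p = 0.0303). In females they were Rpl3l over Rpl3 without KF15 (-1.29, adjusted p = 0.0333) and Rpl7l1 over Rpl7 without KF15 (-0.32, adjusted p = 0.0444) or KF20 (-0.35, adjusted p = 0.0476). As Rps27 shares 98.5% of its 75-base stretches with other transcripts, its ratio is uncertain.

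Other genes of the ribosome and of translation were read beside the family. Fau and Rack1 are ribosomal proteins named otherwise. In females, Fau had a difference of 0.45 ± 0.23 and Rack1 of 0.37 ± 0.21 (SE, limma adjusted p = 0.935 for both). Of 13 elongation factors, 14 other genes whose messengers begin with the pyrimidine tract, 37 initiation factors, 51 ribosome biogenesis genes, 23 regulators of ribosomal protein genes and 77 mitochondrial ribosomal proteins, 0 passed in either sex by limma. Their median differences in females were 0.22, 0.33, 0.10, 0.06, 0.16 and 0.11 in that order, beside 0.42 for the 84 genes and 0.11 for all genes. In males they were 0.01, -0.14, -0.13, -0.08, 0.15 and -0.19 in the same order, beside -0.14 for the 84 genes and 0.05 for all genes. At an unadjusted p under 0.05 in females stood the elongation factor Gfm1, which serves mitochondria (-0.51 ± 0.20, SE), and the MYC partner Max (0.49 ± 0.19, SE), beside 3.94% of all genes. In males, 3 mitochondrial ribosomal proteins were higher and 12 lower at that p. The counts were 1 and 5 for initiation factors, 1 and 6 for biogenesis genes, 3 and 0 for regulators, 1 and 0 for the pyrimidine-tract genes and 0 and 0 for elongation factors. Of all genes, 5.36% were higher and 6.47% lower in males. Between CGI and LARA libraries, limma called 1 of 37 initiation factors, 1 higher and 1 lower of 51 biogenesis genes and 1 of 23 regulators. It called 0 of the 13 elongation factors, 14 other pyrimidine-tract genes and 77 mitochondrial ribosomal proteins. Of all genes, 7.83% were called in either direction. The biogenesis factor Nolc1 was lower in CGI (-0.67 ± 0.14, SE, limma adjusted p = 0.00632). The cap-binding Eif4e2 (0.45), the polymerase I cofactor Taf1d (0.41) and the S6 kinase gene Rps6kb1 (0.34) were higher in CGI (limma adjusted p = 0.0371, 0.0422 and 0.0441).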

How the data were processed

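Polyadenylated RNA of individual atria was sequenced as stranded libraries in one run, per the labels' protocols. HISAT2, HTSeq, DESeq2 and the build mm10 are named in the submitters' processing notes, without versions. The deposited table gives CPM per gene and library, although its header says FPKM, with the authors' group averages, log2 ratios (WT over KO) and DESeq2 p-values. In all 25 libraries 100% of CPM values were whole multiples of 1 read (tolerance 0.001 reads), which gave total counts between 2246887 and 8098602. Of 14467 lines, 10 lines of 5 repeated symbols were left out.

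Differences were fitted over all 14457 genes with limma 3.58.1 (trend) on log2(CPM + 1), in R 4.3.3, with Benjamini-Hochberg adjustment and a threshold of 0.05. edgeR 4.0.16 and DESeq2 1.42.0 on the recovered counts were alternatives, and with edgeR 0, 0 and 7 of the 84 genes were called in females, males and between sets. A fold on this scale understates the change of genes of low level. Permutation tests and correlations used Python 3.11.15 with SciPy 1.17.1. The 84 genes and the gene lists were chosen with earlier results of these data known. Named genes were the paralog pairs, Rps19bp1, the 3 highest and 3 lowest means, the 3 largest and 3 smallest SD, and per comparison the genes that passed or, with fewer than 5, the 5 of smallest p. Of the table's symbols 99.1% were found in GENCODE M21 (GRCm38, the same assembly as mm10), which gave coordinates and lengths. Single-gene results of a few genes are not reported here, though these genes remain in all counts. Leaving out the 2 least deep libraries and the other libraries tried for pairs and for Rpl3l were chosen after seeing the data.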

Additional observations from a re-analysis of the deposited data

Results flagged for a closer look

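In each group, the highest and the lowest library were set against the nearest of the others for the share of ribosomal protein genes, the share of mitochondrially encoded transcripts and each named gene, 124 groups of values in all. Of these, 18 held a library whose gap took up an unusually large part of the range. Chance flags about 1 in 20 groups, and the values of one library are not independent of each other.

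Among the KO males, KM01 stood apart upward in 6 measures and KM13 in 1. KM01 had 18.49% of mitochondrially encoded transcripts (next 9.933%). It had 727.2 CPM of Rpl22 (next 316.6 CPM), 313.9 CPM of Rps27l (next 113 CPM), 424.1 CPM of Rpl35 (next 128.3 CPM), 710 CPM of Rpl39 (next 223.9 CPM) and 693.5 CPM of Rpl36a (next 266.6 CPM). KM13 had 96.92 CPM of Rpl3l, against 19.35 CPM in the next KO male.

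Among the KO females, KF19 had 457.2 CPM of Rpl22 (next 337.8 CPM), 166.6 CPM of Rps27l (next 114.2 CPM), 391.5 CPM of Rplp2 (next 313.7 CPM) and 996.1 CPM of Rps9 (next 696.5 CPM). KF15 had 90.61 CPM of Rpl3l (next 43.62 CPM). Among the WT females, WF10 had 30.18% of mitochondrially encoded transcripts (next 12.57%), and low levels of Rpl3 (241.7 CPM, next 735.1 CPM), Rplp0 (594.2 CPM, next 1024 CPM) and Rpl4 (499.4 CPM, next 1111 CPM). Among the WT males, WM1 had 2.817 CPM of Rps3a3 (next 1.601 CPM) and 9.969 CPM of Rpl37rt (next 7.473 CPM).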

How the results depend on the processing

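Over 51 results and 1228 alternatives, the main results were rated as moved in 21 and as the same in 190. A count of called genes was rated the same if equal or close to the main count, and a mean share if within 1 SD. Single genes and pairs lost their call in 28, gained one in 22 and reversed in 9. Between the CGI and LARA sets, the 4 calls became 67 with array weights, 11 with DESeq2, 7 with edgeR, 7 when mitochondrially encoded genes were left out of the library totals, 8 after quantile normalization and 10 after median-ratio scaling. They were 8 without the 2 least deep libraries and 0 in the wild types alone, and lay between 0 and 18 with 1 library left out. In males, 18 genes were called with array weights and 0 to 1 with 1 library left out, and between the sexes 1 was called with array weights. Of all genes, in either direction, 7.83% were called between the sets, against 44.8% with array weights, 21% with DESeq2, 16.9% with edgeR, 13.6% without the mitochondrially encoded genes, 16.6% after quantile normalization, 16.1% after median-ratio scaling, 20.1% without the 2 least deep libraries and 1.21% in the wild types alone. With array weights, 23.2% were called in males and 4.09% between the sexes. The causes were not tested.

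In males, the LARA set alone and a term for the name set both turned Rps3a3 to -0.36 and Rpl3l to 1.22. Of the log2 ratios in females, Rps27l over Rps27 turned to -0.059 in the LARA set alone, and in the CGI set alone Rpl22l1 over Rpl22 turned to -0.019 and Rps4l over Rps4x to 0.22. With 1 library left out, Rps4l over Rps4x lay between -0.28 and 0.13 in females, and Rpl7l1 over Rpl7 between -0.092 and 0.34 in males.

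KO and WT males share the replicate numbers 1, 3, 5 and 7. Deviations of same-numbered libraries correlated at 0.24, -0.20, 0.25 and 0.07. Libraries of different numbers were not compared, so these values cannot decide whether the numbers pair them. With the replicate block 0 genes were called and the median difference was -0.21.

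Depth limits the genes of lowest level, where 3 counts come to 0.370 to 1.34 CPM. The share of the 84 genes of counts without mitochondrially encoded ones was 4.57% in KO females, 4.65% in KO males, 3.46% in WT females and 4.50% in WT males. These lie within 1 SD of the values over all counts.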
